A study of Mus musculus with 12 samples.

Results

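The 10 genes described here are those that mark resting and activated microglia in mouse, and they were found by gene name as 10 of the 38924 genes in the expression tables of 12 spinal cord libraries. The resting genes were P2ry12, Tmem119, Cx3cr1, Csf1r and C1qa. The activated genes were Gpnmb, Lpl, Spp1, Igf1 and Lgals3. Each had 1 row in every library, and all 10 passed the filter on low counts that left 17995 genes for testing. Gpnmb passed only through P278KY libraries, of which 4 of 6 and none of the wt libraries reached the filter's level of 0.314 CPM.

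Microglia are the resident macrophages of the brain and spinal cord. In a healthy cord they survey their surroundings with fine processes and carry receptors for ATP breakdown products, for the neuronal chemokine fractalkine and for the growth factor CSF1. Around injured or degenerating neurons, and in developing white matter, microglia lower several of these resting genes and raise genes for lipid handling, lysosomes and secreted factors, of which Spp1, Lpl, Igf1, Gpnmb and Lgals3 are widely used marks. None of the activated genes is made by microglia alone. Osteopontin (Spp1) is a bone matrix protein, lipoprotein lipase (Lpl) is abundant in fat and muscle, and Igf1 is made by many connective tissue cells. Whether the resting genes came from microglia alone in these cords was not tested either.

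The libraries came from whole spinal cord of mice aged 1 week on a B6J;CAST background, a mix of C57BL/6J with the wild-derived CAST strain. Of the 12 mice, 6 carried P278KY, an allele of the glycyl-tRNA synthetase gene Gars, over a wt allele (GarsP278KY/+), and 6 were wt, with 3 mice labelled female and 3 labelled male in each genotype. Alleles of human GARS1 cause an inherited motor and sensory neuropathy, and the series title places these mice before disease onset. The comparison asked whether the cord's transcriptome already differed then. The allele is a mutation of the whole body, no transgene or Cre was named, and each library is a separate mouse.

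The libraries held between 27713981 and 43219891 estimated counts. Sex marks went against the label in 2 libraries, both wt. Xist, the RNA of the inactive X chromosome, was near absent (0.533 CPM) and Y-linked genes summed to 114 CPM in female wt 14, while male wt 19 held 860 CPM of Xist and 0.14 CPM of Y-linked genes. They are called sex-discordant here, and results that rest on them are given with and without them. Gars mRNA was at 121 to 140 CPM in P278KY libraries and 117 to 135 CPM in wt libraries. Across 17995 genes, edgeR's quasi-likelihood test with Benjamini-Hochberg adjustment called 1 gene (0.00556%) at an adjusted p under 0.05, and 736 genes (4.09%) had an unadjusted p under 0.05.

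No microglia gene passed the test for genotype. The highest library exceeded the lowest by 1.48 to 2.98 times in the 5 resting genes, and by 1.96 times in Igf1 to 26.5 times in Gpnmb among the activated ones. The fitted log2 fold change was above 0 for the 9 genes other than Gpnmb, against 46.9% of all genes tested, but the 9 are not independent, and 0 of 10 were called (edgeR adjusted p = 0.9999 for each). At an unadjusted p under 0.05 there were also 0 of 10. DESeq2 called 33 genes (0.183%) and none of the 10, of which Lpl alone had an unadjusted p under 0.05 (0.0396). None of the 10 had groups that did not overlap in CPM, against 0.222% of all genes.

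Ordered by mean TPM, a level per transcript length, over all 12 libraries, Spp1 stood first at 48.1 ± 29.0 TPM (SD, n = 12). C1qa averaged 26.3 ± 4.98 TPM, Csf1r 26.0 ± 4.59, P2ry12 21.9 ± 4.53 and Cx3cr1 17.3 ± 2.19 TPM. Lpl averaged 13.8 ± 7.24 TPM, Igf1 12.4 ± 2.62, Tmem119 8.44 ± 3.04, Lgals3 3.08 ± 0.936 and Gpnmb 0.148 ± 0.132 TPM. The last 3 steps of this order held in all 12 libraries. Spp1 exceeded C1qa in 9 libraries, C1qa exceeded Csf1r in 9, and Lpl exceeded Igf1 in only 6, so those neighbours did not differ beyond their spread. Spp1 and Gpnmb, the highest and the lowest of the 10, both belong to the activated group.

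**Figure D1:**
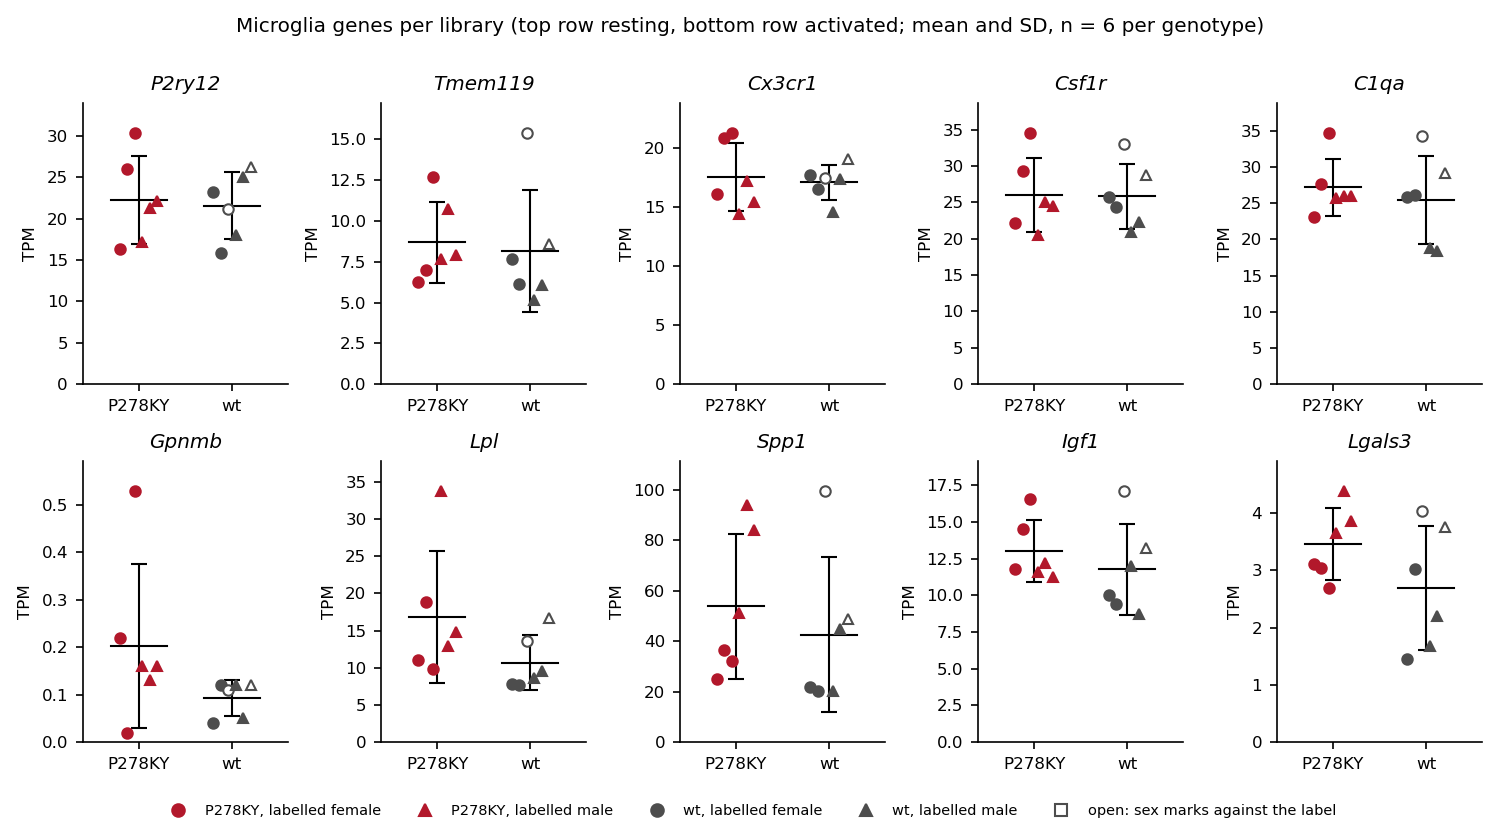
TPM of each gene in every library, with 1 panel per gene, resting genes in the top row and activated genes in the bottom row; P278KY is left of wt, bars are mean and SD over 6 mice, circles are libraries labelled female, triangles libraries labelled male, and open marks the 2 sex-discordant libraries. The groups overlap in every panel, and the open circle at 99.5 TPM for Spp1 is the library labelled female wt 14.

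Among the resting genes, P2ry12 (ENSMUSG00000036353, chr3:59216272-59262871, minus strand, GRCm38) encodes the ADP receptor that draws microglial processes towards damaged cells. It ranged over 16.3, 21.7 and 30.4 TPM (lowest, median and highest) in P278KY cords and over 15.8, 22.2 and 26.2 TPM in wt cords. Only female P278KY 10 lay above the highest wt library, with a log2 fold change of 0.07 ± 0.18 (SE; adjusted p = 0.9999 in edgeR).

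Cx3cr1 (ENSMUSG00000052336, chr9:119901616-120069879, minus strand) is the receptor for fractalkine, which neurons display and shed. It spanned 14.4 to 21.3 TPM around a median of 16.6 in P278KY cords, and 14.6 to 19.1 TPM around 17.4 in wt cords. Of the P278KY libraries 2 lay above the highest wt library and 1 below the lowest, and the log2 fold change was 0.08 ± 0.10 (edgeR adjusted p = 0.9999). Cx3cr1 was the steadiest of the 10, with a highest level 1.48 times its lowest.

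Csf1r (ENSMUSG00000024621, chr18:61100598-61132149, plus strand) is the receptor tyrosine kinase on which microglial survival depends. Its lowest, median and highest levels were 20.6, 24.8 and 34.6 TPM in P278KY cords, against 20.9, 25.0 and 33.1 TPM in wt cords. The log2 fold change was 0.04 ± 0.13 (edgeR adjusted p = 0.9999). Csf1r shares 873 exonic bases with Hmgxb3 on the opposite strand, and the strand setting of the counting is not given in the sources used here, so reads of the 2 genes may be mixed.

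C1qa (ENSMUSG00000036887, chr4:136895917-136898803, minus strand) encodes the A chain of complement C1q, which tags synapses and debris for removal. It lay at 23.2, 26.0 and 34.7 TPM in P278KY cords and at 18.4, 26.0 and 34.2 TPM in wt cords (lowest, median, highest). Among libraries labelled male, the P278KY cords fell between 25.8 and 26.0 TPM, against 18.4 to 29.2 TPM in wt cords, and the wt value at the top was the sex-discordant male wt 19. The log2 fold change over both sexes was 0.14 ± 0.15 (edgeR adjusted p = 0.9999).

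Tmem119 (ENSMUSG00000054675, chr5:113793729-113800516, minus strand), a membrane protein used to tell microglia from blood-derived macrophages, varied most among the resting genes. Its levels were 6.24, 7.78 and 12.7 TPM in P278KY cords and 5.16, 6.91 and 15.4 TPM in wt cords (lowest, median, highest). The wt maximum belonged to the library labelled female wt 14, and the other 5 wt libraries lay between 5.16 and 8.58 TPM. The log2 fold change was 0.13 ± 0.24 over all libraries and 0.45 ± 0.18 without the 2 sex-discordant ones (edgeR adjusted p = 0.9999 and 0.754).

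Among the activated genes, Spp1 (ENSMUSG00000029304, chr5:104435118-104441050, plus strand) encodes osteopontin, a secreted phosphoprotein. It stood at 51.2, 94.0 and 83.8 TPM in male P278KY 3, 5 and 13 and at 25.0, 36.5 and 32.0 TPM in female P278KY 4, 7 and 10. In wt cords it stood at 20.1, 44.8 and 48.6 TPM in male wt 6, 9 and 19, and at 21.7, 20.02 and 99.5 TPM in female wt 1, 2 and 14. The highest single TPM was thus in a wt library, the sex-discordant female wt 14. In CPM male P278KY 5 was the highest, at 68.5 against 66.8 in female wt 14. Among libraries labelled male, the lowest P278KY value, 51.2 TPM, was just above the highest wt value, 48.6 TPM in the sex-discordant male wt 19. How many of all genes separate 3 against 3 libraries in this way was not counted. The separation is therefore a description and not a result about Spp1. The log2 fold change was 0.25 ± 0.51 with all libraries and 0.94 ± 0.29 without the 2 sex-discordant ones (edgeR adjusted p = 0.9999 and 0.535). It was 0.85 ± 0.26 without female wt 14 alone and 0.23 ± 0.59 without male wt 19 alone (edgeR adjusted p = 0.9999 and 0.9996). The single library female wt 14 thus moved the estimate more than its own error.

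Igf1 (ENSMUSG00000020053, chr10:87858265-87937042, plus strand), a secreted growth factor for neurons and oligodendrocytes, covered a narrower range. The lowest, median and highest values were 11.2, 12.02 and 16.6 TPM in P278KY cords and 8.74, 11.01 and 17.1 TPM in wt cords. All 6 P278KY libraries exceeded the wt median in TPM, and none exceeded the wt maximum, again female wt 14. In CPM female P278KY 10 did exceed it, at 58.0 against 56.2. The log2 fold change was 0.22 ± 0.15, or 0.44 ± 0.12 without the sex-discordant libraries (edgeR adjusted p = 0.9999 and 0.379).

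Lgals3 (ENSMUSG00000050335, chr14:47367751-47386160, plus strand) encodes galectin-3, a sugar-binding protein of phagocytic cells. In P278KY cords it lay between 2.70 and 4.39 TPM around a median of 3.39, and in wt cords between 1.45 and 4.04 TPM around 2.61. The P278KY libraries were the more even group, with a coefficient of variation of 18.0% against 40.4% in wt. The log2 fold change was 0.34 ± 0.28 with all libraries and 0.73 ± 0.27 without the sex-discordant ones (edgeR adjusted p = 0.9999 and 0.657).

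Lpl (ENSMUSG00000015568, chr8:68880491-68907448, plus strand) releases fatty acids from circulating lipoproteins. Its values were 33.8, 12.9 and 14.8 TPM in male P278KY 3, 5 and 13 and 11, 18.9 and 9.88 TPM in female P278KY 4, 7 and 10. In wt cords they were 8.66, 9.59 and 16.7 TPM in male wt 6, 9 and 19, and 7.82, 7.65 and 13.6 TPM in female wt 1, 2 and 14. All 6 P278KY libraries were above the wt median and 2 above the wt maximum, and male P278KY 3 stood far above the rest. The fitted fold change was 1.70 (log2 0.77 ± 0.37; edgeR adjusted p = 0.9999, unadjusted p = 0.0644). It was 0.45 ± 0.31 on the log2 scale without male P278KY 3 and 1.21 ± 0.37 without the sex-discordant libraries (edgeR adjusted p = 1 and 0.534).

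Gpnmb (ENSMUSG00000029816, chr6:49036546-49070929, plus strand), a transmembrane glycoprotein of lysosome-rich cells, was barely present. Its estimated counts were 11, 8 and 11 in male P278KY 3, 5 and 13 and 13, 1 and 36 in female P278KY 4, 7 and 10. In wt libraries the counts were 9, 3 and 11 in male wt 6, 9 and 19 and 3, 9 and 7 in female wt 1, 2 and 14. The lowest and the highest count of all were both in female P278KY cords. The fitted fold change of 2.12 (log2 1.09 ± 0.57; edgeR adjusted p = 0.9999, unadjusted p = 0.0781) rested on these counts, and on the log2 scale it was 0.53 ± 0.51 without female P278KY 10 and 1.33 ± 0.41 without female P278KY 7. Gpnmb lies 5.97 Mb from Gars on the same chromosome. Since the filter kept Gpnmb through P278KY libraries only, its fold is not set against those of other genes. Lpl was the 1 other member with a fitted fold of at least 1.5 upwards, which 2.18% of all genes reached.

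The upstream sequences of Spp1 and Gpnmb, the most and the least abundant of the 10, are shown. Their 250 bases before the RefSeq start overlap no annotated exon and hold a match to a searched motif, and both were conditions for showing a sequence. A second RefSeq window of Spp1, chr5:104435942-104436191, overlaps an exon, held 0 matches and is not shown. The first 30 bases from each start were looked for in GENCODE M21 transcripts of the gene. They were found in 0 of 7 for the Spp1 window shown, 0 of 5 for Gpnmb and 1 of 7 for the second Spp1 window. GENCODE M21 starts Spp1 at chr5:104435118 and Gpnmb at chr6:49036546. The distances below therefore hold for the RefSeq starts only. RefSeq promoters (GRCm38.p6) were matched for 6 of the 10 genes, and capitals mark matches to GAGGAA, a core of PU.1 and other ETS factor sites, or AACCACA, a RUNX motif. The windows are chr5:104434861-104435110 for Spp1 and chr6:49036268-49036517 for Gpnmb, both on the plus strand.
Spp1: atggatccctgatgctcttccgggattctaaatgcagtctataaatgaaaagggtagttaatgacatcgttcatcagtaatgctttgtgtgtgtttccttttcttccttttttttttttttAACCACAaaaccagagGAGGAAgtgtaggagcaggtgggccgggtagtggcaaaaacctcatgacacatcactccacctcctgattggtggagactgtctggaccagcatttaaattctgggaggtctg
Gpnmb: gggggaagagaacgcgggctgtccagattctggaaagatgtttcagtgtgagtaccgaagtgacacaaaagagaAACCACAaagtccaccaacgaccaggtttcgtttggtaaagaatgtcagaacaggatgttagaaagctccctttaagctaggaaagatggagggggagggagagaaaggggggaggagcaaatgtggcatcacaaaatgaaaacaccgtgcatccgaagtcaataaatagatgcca
Both hold AACCACA, 123 to 129 bases before the start in Spp1 and 170 to 176 bases before it in Gpnmb. Spp1 also holds GAGGAA 108 to 113 bases before its start, and the 2 motifs do not overlap. Searched on both strands, AACCACA occurred in 4.4% of 32851 promoters and GAGGAA in 23.3%. The AP-1 motif TGANTCA (6.75% of promoters) and CACGTG, bound by MITF, TFE3 and TFEB (6.02%), were not found in either window.

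**Figure D2:**
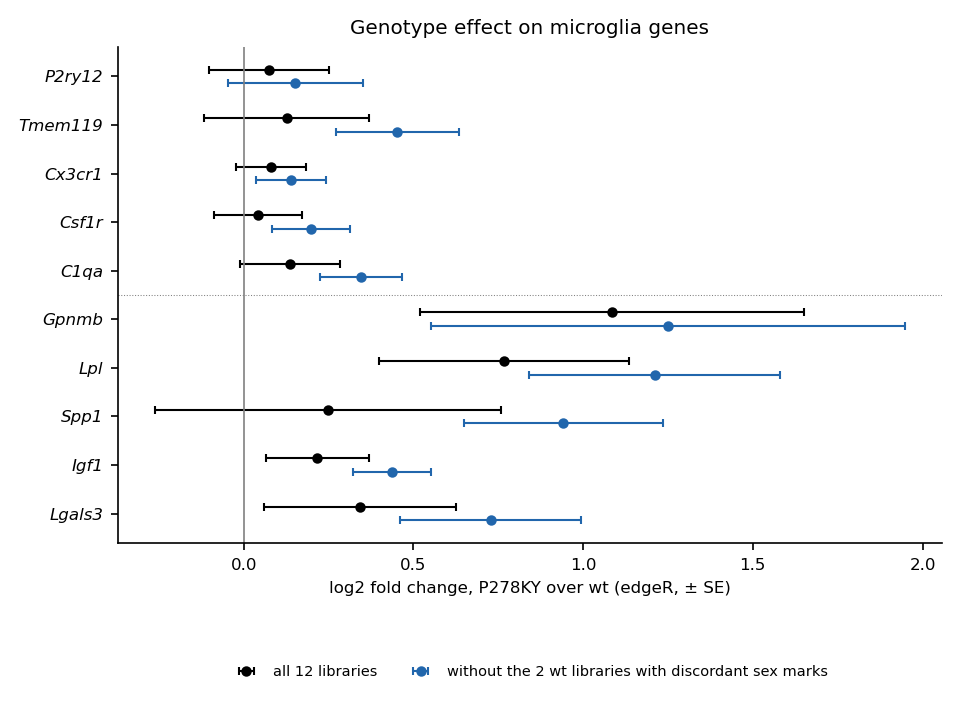
Log2 fold change of P278KY over wt (x axis) for each gene (y axis), from edgeR with its standard error, over all 12 libraries in black and without the 2 sex-discordant wt libraries in blue. In all 10 genes the blue point lies to the right of the black one, and the shift is widest for Spp1, at 0.94 against 0.25.

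As lists, with no test, the resting genes had a median log2 fold change of 0.08 and the activated genes one of 0.34 (0.30 without Gpnmb), against -0.01 over all genes tested. Without the library labelled female wt 14 the activated median was 0.85, and without both sex-discordant libraries it was 0.94, with 0 of 10 genes called. Both medians include Gpnmb. The 4 other activated genes ran from 0.34 to 0.97 in the first of these fits and from 0.44 to 1.21 in the second. Of the 10, 6 then had an unadjusted p under 0.05, against 5.76% of all genes. They were Tmem119, C1qa, Lpl, Spp1, Igf1 and Lgals3, with edgeR adjusted p between 0.379 and 0.754. These 6 are not independent, and in each the highest wt library was 1 of the 2 left out. With all 12 libraries kept and the level of Y-linked genes as the sex term, 0 of 10 had an unadjusted p under 0.05. In that fit the log2 fold changes of the 6, in the same order, were 0.11, 0.13, 0.76, 0.31, 0.22 and 0.34 (edgeR adjusted p = 0.9997 for each). With a skeletal muscle score added to the main fit, the activated median, Gpnmb included, was 0.09 and the resting median -0.02. P2ry12, Csf1r, C1qa, Lpl and Spp1 had log2 fold changes below 0, at -0.02, -0.04, -0.02, -0.16 and -0.06. The activated genes other than Gpnmb ran from -0.16 to 0.12. Gpnmb went the other way, to 1.70 ± 0.71 (edgeR adjusted p = 0.9997, unadjusted p = 0.0333). Skeletal muscle markers summed to 110 to 3370 TPM in P278KY cords and 10.4 to 1300 TPM in wt cords. Of these, 10 of 10 had a log2 fold change above 0, with a median of 2.74. An unadjusted p under 0.05 was found for 6 of the 10, against 4.09% of all genes, and none was called. The muscle score ran from 2.05 to 7.06 in P278KY libraries. In wt libraries it was 5.73 in male wt 19 and between -0.69 and 1.88 in the others. The score thus went largely with genotype, so the fit with it cannot tell the 2 apart. Osteoblast and bone markers summed to 202 to 517 TPM in P278KY cords and 141 to 737 TPM in wt cords, with 9 of 10 above 0, a median of 0.35 and none called. Osteoclast markers summed to 35.2 to 97.0 TPM in P278KY cords and 27.9 to 116 TPM in wt cords, with 7 of 8 above 0, a median of 0.11 and none called. Their part in the result was not tested beyond the fit with the muscle score.

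Summed over the 5 resting genes, the level was 102 ± 18.5 TPM in P278KY cords and 98.2 ± 16.2 TPM in wt cords (SD, n = 6 each). Summed over the 5 activated genes it was 87.3 ± 29.5 TPM in P278KY cords and 67.7 ± 36.8 TPM in wt cords. Spp1 made up 47.2% to 76.0% of the activated sum in single libraries, so that sum mostly follows 1 gene. Without Spp1 the other 4 summed to 33.5 ± 8.38 TPM in P278KY cords and 25.2 ± 7.17 TPM in wt cords. The ratio of activated to resting sums was 1.17, 1.23 and 1.19 in the 3 male P278KY cords and 0.609, 0.658 and 0.462 in the 3 female P278KY cords. In wt cords it was 0.549, 0.733 and 0.737 in libraries labelled male and 0.410, 0.452 and 1.11 in libraries labelled female, with female wt 14 as the 1 wt library close to the male P278KY cords. In bulk tissue, fewer cells of a type and less RNA per cell cannot be told apart.

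**Figure D3:**
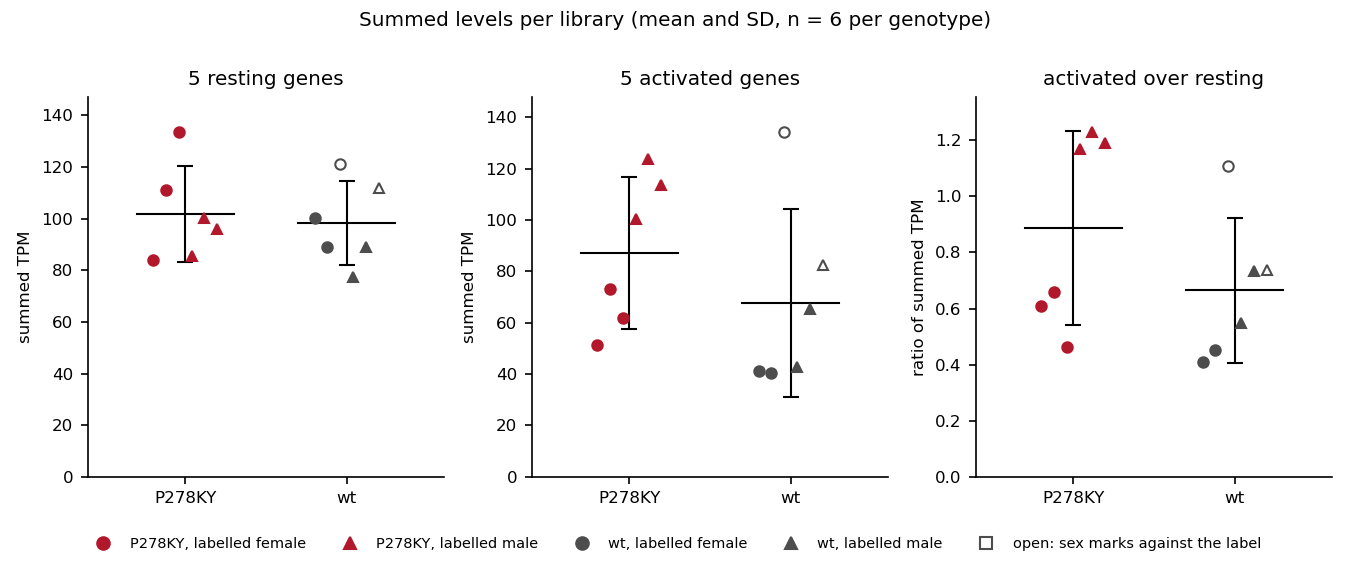
Summed TPM of the 5 resting genes (left), of the 5 activated genes (middle) and the ratio of the 2 sums (right) per library, P278KY left of wt, with mean and SD over 6 mice; marks as in the plot of single genes. The resting sums run from 84.0 to 134 TPM in P278KY and from 77.5 to 121 TPM in wt libraries, while the ratio separates the 3 male P278KY libraries and the open circle of female wt 14 from the others.

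Within labelled sex, the fitted change of Spp1 was below 0 in females only with the sex-discordant libraries included, and its difference between the sexes did not pass the test. In females the log2 fold change was -0.54 ± 0.63 for Spp1, 0.56 ± 0.54 for Lpl and -0.01 ± 0.39 for Lgals3 (edgeR adjusted p = 0.828, 0.778 and 0.998). In males it was 1.03 ± 0.63 for Spp1, 0.97 ± 0.54 for Lpl and 0.69 ± 0.39 for Lgals3 (edgeR adjusted p = 0.955, 0.942 and 0.942). Without the sex-discordant libraries the female values were 0.62 ± 0.40 for Spp1, 0.97 ± 0.54 for Lpl and 0.32 ± 0.34 for Lgals3 (edgeR adjusted p = 0.578, 0.526 and 0.725). The male values were then 1.27 ± 0.40, 1.46 ± 0.55 and 1.16 ± 0.34 (edgeR adjusted p = 0.466, 0.528 and 0.415). The difference between sexes, female minus male, was -1.57 ± 0.89 for Spp1 (edgeR adjusted p = 0.567) and -0.66 ± 0.55 without the sex-discordant libraries (edgeR adjusted p = 0.662). No member passed in either sex or for the interaction, where edgeR called 0 genes (0%) in each and 1929 (10.7%), 884 (4.91%) and 1967 (10.9%) had an unadjusted p under 0.05 in females, in males and for the interaction. DESeq2 called 289 genes (1.61%) in females, 34 (0.189%) in males and 279 (1.55%) for the interaction, with none of the members among them. Gpnmb had no DESeq2 adjusted p in females or for the interaction and could not be called there.

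None of the remaining members passed either. P2ry12 had log2 fold changes of 0.32 ± 0.24 in females and -0.17 ± 0.24 in males, and Tmem119 had -0.17 ± 0.33 in females and 0.42 ± 0.34 in males. Without the sex-discordant libraries Tmem119 was at 0.30 ± 0.26 in females and 0.61 ± 0.26 in males, and P2ry12 at 0.35 ± 0.29 in females and -0.04 ± 0.28 in males. Igf1 was at 0.32 ± 0.22 in females and 0.12 ± 0.22 in males, and without those libraries at 0.63 ± 0.15 in females and 0.25 ± 0.15 in males (edgeR adjusted p = 0.283 and 0.676). Between labelled sexes across both genotypes, the log2 difference, male minus female, was 0.61 ± 0.37 for Lpl and 0.56 ± 0.51 for Spp1, and for the other 8 it lay between -0.34 and 0.21 (edgeR adjusted p = 0.9998 for each). Without the sex-discordant libraries the Spp1 value was 1.09 ± 0.28 (edgeR adjusted p = 0.836). The test of sex called 0 genes (0%) with edgeR, 827 (4.6%) at an unadjusted p under 0.05, and 27 (0.15%) with DESeq2.

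The 10 genes differed in how much they varied between mice once genotype and labelled sex were fitted. The biological coefficient of variation was 14.4% for Cx3cr1, 16.8% for Csf1r, 20.3% for C1qa, 22.3% for P2ry12 and 30.7% for Tmem119. It was 19.2% for Igf1, 35.0% for Lgals3, 43.1% for Lpl, 57.2% for Spp1 and 60.8% for Gpnmb. Among all genes tested Cx3cr1 lay at percentile 50, and Lpl, Spp1 and Gpnmb lay at percentiles 92.8, 95.5 and 95.8. Gpnmb is also the least counted of the 10, and low counts raise this measure.

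Between mice, pairs of resting genes had a higher median correlation than pairs of activated genes. As a description over 12 libraries that share depth and composition, Pearson r of log2 CPM had a median of 0.743 over 10 pairs of resting genes (0.403 to 0.852), 0.487 over 10 pairs of activated genes (0.022 to 0.793) and 0.356 over 25 mixed pairs (-0.007 to 0.693). Csf1r with C1qa stood at 0.852, Tmem119 with C1qa at 0.841 and P2ry12 with Cx3cr1 at 0.837, and the closest activated pair was Spp1 with Lgals3 at 0.793. Activated pairs that include Gpnmb, the least counted gene, ran from 0.022 to 0.370 and lowered the activated median. The other activated pairs ran from 0.457 to 0.793.

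The genes whose profile over the 12 libraries was most like each member's were then taken by Pearson r of log2 CPM among 13768 genes with a mean of at least 1 CPM. Because they are the highest of so many at 12 libraries, these r values are descriptions only. Nearest to C1qa were C1qc, another C1q chain (0.964), Laptm5 (0.958) and Clec3b (0.957), and those near Csf1r included Ptgs1 (0.954) and Tyrobp, a microglial signalling adaptor (0.943). Cx3cr1 had Twf1 (0.936), the microglial receptor Gpr34 (0.921) and Sgk3 (0.918), P2ry12 had Sept8 (0.943), Fgd3 (0.935) and Rnf43 (0.934), and Tmem119 had Elf4 (0.929), Timp1 (0.922) and Sun2 (0.912).

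Activated genes had other neighbours. Spp1 had Acp5, the tartrate-resistant phosphatase of osteoclasts (0.963), the vitamin D receptor Vdr (0.960) and the osteoclast protease Ctsk (0.950). Lgals3 had the bone matrix gene Ibsp (0.906), Ptp4a3 (0.903) and the osteocalcin gene Bglap2 (0.895). Lpl had the fatty acid transporter Cd36 (0.974), Lmo7 (0.974) and tropomyosin Tpm1 (0.969), and Igf1 had Igf2 (0.946), the collagen receptor Ddr2 (0.943) and Ptrf (0.943). Gpnmb had Znf41-ps (0.815), Smoc1 (0.795) and Dcun1d5 (0.794), the weakest likeness of any member. Among the 20 nearest genes, other listed microglia genes numbered 3 for C1qa, 2 for Cx3cr1, 1 for P2ry12 and for Tmem119, and 0 for each of the 5 activated genes. The 20 nearest to Spp1 held 9 genes of the bone, osteoclast and cartilage lists, among them Dmp1, Runx2 and Mmp9.

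Each member was set against the summed markers of 17 other cell types, which made 170 relations, tested by permuting the 12 libraries and adjusted over all 170. Of these, 28 had an adjusted p under 0.05, 14 of them with an activated gene. Summed levels follow their leading genes, Ctsk for osteoclasts, Col1a1 for bone, Col1a2 for meninges and fibroblasts, Acta1 for skeletal muscle, Fabp4 for adipocytes, Stab1 for border macrophages, Mbp for oligodendrocytes and Gfap for astrocytes.

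Spp1 followed osteoclast markers most closely of all. These summed to 60.7, 92.5 and 97.0 TPM in male P278KY 3, 5 and 13 and 35.2, 45.4 and 50 TPM in female P278KY 4, 7 and 10, against 27.9, 48.7 and 51.4 TPM in male wt 6, 9 and 19 and 34.4, 30.6 and 116 TPM in female wt 1, 2 and 14. The libraries high in Spp1 were those high in osteoclast markers, in both genotypes. Pearson r was 0.972 (permutation p = 1e-05, the smallest possible here, adjusted p = 0.0017) and Spearman rho 0.958 (permutation p = 1e-05, adjusted 0.0017). It was 0.972 without the 2 libraries farthest from the median, 0.98 without the sex-discordant ones and 0.970 within genotypes. Against osteoblast and bone markers Spp1 had an r of 0.898 and a rho of 0.860 (permutation p = 8e-05 and 0.0008, adjusted 0.00453 and 0.0151), and 0.873 without the 2 farthest libraries. Cartilage (0.840), red blood cell (0.828) and adipocyte (0.812) sums also passed by r for Spp1. The rho with cartilage, 0.755, did not pass (permutation p = 0.00676, adjusted 0.0522).

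Lgals3 went with bone markers at an r of 0.790 and a rho of 0.776 (permutation p = 0.00201 and 0.00463, adjusted 0.0223 and 0.0464), and at 0.754 within genotypes. Its r with red blood cell markers, 0.820, was 0.463 without the 2 farthest libraries and so rested on them. Lpl went with adipocyte markers at an r of 0.896 and a rho of 0.853 (permutation p = 4e-05 and 0.00067, adjusted 0.0034 and 0.0142), and with skeletal muscle markers at an r of 0.849 and a rho of 0.895 (permutation p = 0.00029 and 0.00014, adjusted 0.00963 and 0.00476). Within genotypes these r values were 0.891 and 0.794. The library with the most Lpl, male P278KY 3, had the highest sums of both lists, 218 TPM of adipocyte and 3370 TPM of muscle markers.

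Igf1 followed the sum of meningeal and fibroblast markers, with an r of 0.871 and a rho of 0.909 (permutation p = 0.00021 and 0.00011, adjusted 0.00892 and 0.00467), and it was 0.850 within genotypes. With markers of border macrophages, the macrophages of the meninges and vessels, its r was 0.860 and its rho 0.923 (permutation p = 0.00034 and 8e-05, adjusted 0.00963 and 0.00453). Gpnmb passed with none of the 17 lists, its r lying between -0.351 and 0.224. What these other cell types contributed to each gene's level was not tested.

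**Figure D4:**
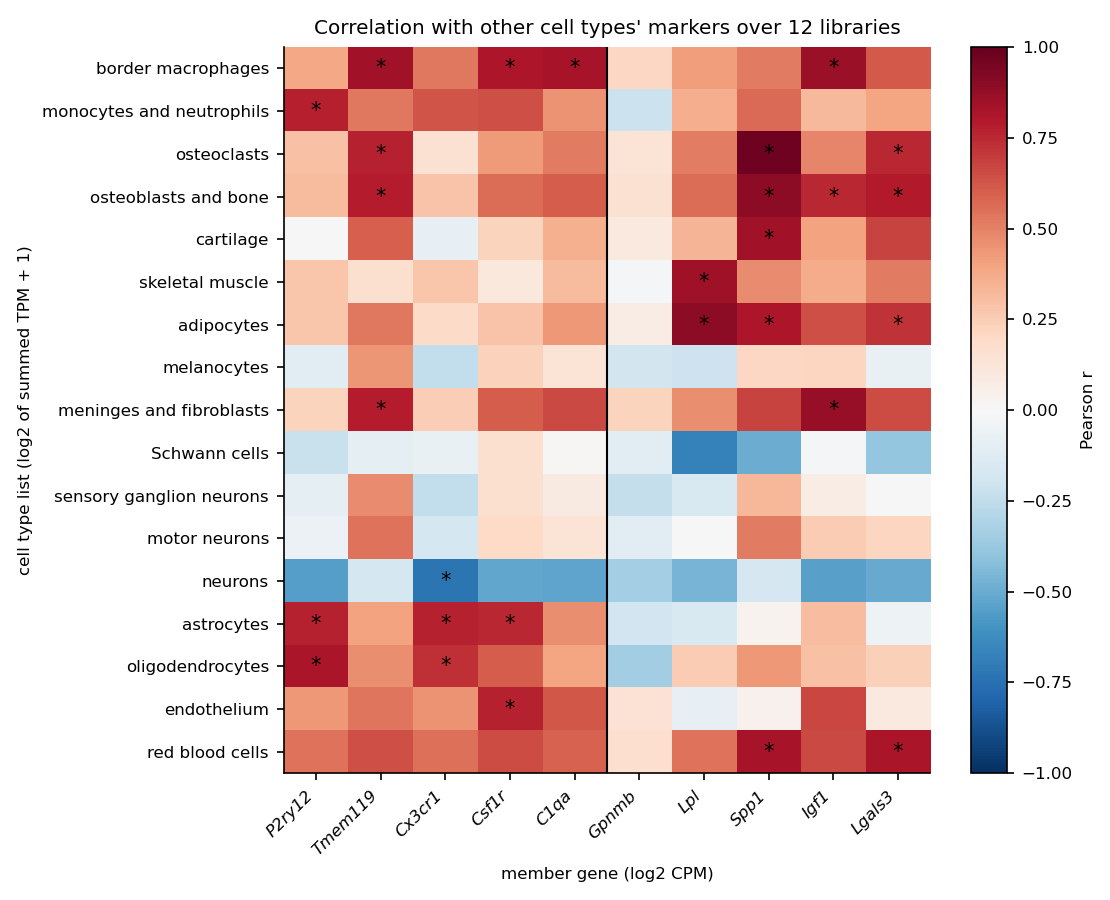
Pearson r over 12 libraries between each gene (x axis, log2 CPM, resting genes left of the line) and the summed markers of 17 cell types (y axis, log2 of summed TPM + 1); red is positive, blue negative, and asterisks mark the 28 relations with a permutation p under 0.05 after adjustment over 170. Spp1 and Lgals3 are marked for osteoclasts and bone, Lpl for muscle and adipocytes, and Gpnmb for none.

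Among resting genes, markers of border macrophages and of glia passed most often. C1qa went with border macrophage markers at an r of 0.828 and a rho of 0.916 (permutation p = 0.00073 and 6e-05, adjusted 0.0138 and 0.00453), and Csf1r did so at an r of 0.809 and a rho of 0.762 (permutation p = 0.00158 and 0.00556, adjusted 0.0223 and 0.0514). P2ry12 went with oligodendrocyte markers at an r of 0.815 and a rho of 0.790 (permutation p = 0.00194 and 0.00331, adjusted 0.0223 and 0.0402). Cx3cr1 went with astrocyte markers at an r of 0.773 and a rho of 0.797 (permutation p = 0.00309 and 0.00298, adjusted 0.0271 and 0.039). Cx3cr1 also carried the 1 negative relation among the 28, an r of -0.733 with neuron markers, whose rho of -0.552 did not pass (permutation p = 0.00713 and 0.0683, adjusted 0.0457 and 0.19).

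Tmem119 was the 1 resting gene whose r passed with bone and osteoclast markers. Its r was 0.842 with border macrophages, 0.786 with bone and 0.773 with osteoclasts, each highest in the library labelled female wt 14. The rho values were 0.692, 0.755 and 0.846, of which only that with osteoclasts passed (permutation p = 0.0151, 0.00612 and 0.00096, adjusted 0.078, 0.052 and 0.0163). Without the sex-discordant libraries the r values were 0.746, 0.653 and 0.656, and within P278KY alone 0.567, 0.518 and 0.419. Within wt alone, with female wt 14 included, they were 0.931, 0.877 and 0.937. The relation with border macrophages was 0.577 without the 2 farthest libraries and so rested on them, as did those of Igf1 with bone (0.752 and 0.560) and of Csf1r with endothelium (0.772 and 0.530).

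**Figure D5:**
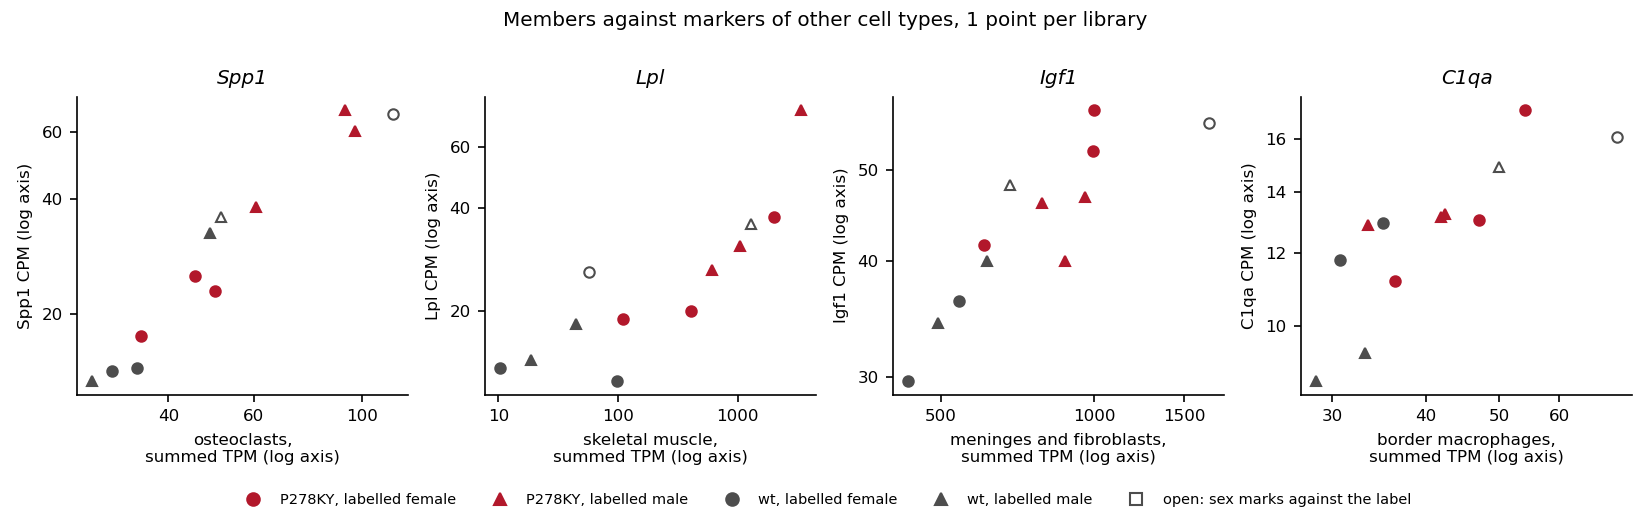
CPM of Spp1, Lpl, Igf1 and C1qa (y axes, log scale) against the summed TPM of osteoclast, skeletal muscle, meningeal and border macrophage markers (x axes, log scale), 1 point per library; colours and marks as in the plot of single genes. For Spp1 the 2 male P278KY libraries and the open circle of female wt 14 with the most osteoclast markers, 92.5 to 116 TPM, are also the 3 with the most Spp1.

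Other genes of the microglial programme were read from lists chosen with earlier results of these data known. Of 26 further identity genes, 0 were called for genotype, 19 had a log2 fold change above 0 and 7 below, and their median was 0.04. The smallest p belonged to Hpgds, a prostaglandin D synthase (log2 fold change 0.30 ± 0.14, 3.25 ± 0.534 TPM in P278KY and 2.57 ± 0.646 TPM in wt cords), and Gpr56, an adhesion receptor shared with other glia (-0.09 ± 0.05, 95.2 ± 5.42 and 103.7 ± 4.51 TPM in P278KY and wt cords). Neither passed (edgeR adjusted p = 0.9999, unadjusted p = 0.0515 and 0.0965).

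A further list of activated microglia genes had 24 symbols, of which 23 were found and 19 tested. None was called, 13 had a log2 fold change above 0 and 6 below, and the median was 0.04. The 4 activated members other than Gpnmb had a median of 0.30. The difference was not tested, and the members too were chosen with earlier results known. Of the 23 found, 6 averaged under 1 TPM and the others more. Among the 6, and named after their values were seen, Itgax averaged 0.0867 TPM, Ccl4 0.104, Cst7 0.198 and Ccl3 0.436 TPM. None of these passed the filter, while Clec7a passed it and ran from 0.26 to 1.19 TPM. The list's smallest p was that of the tetraspanin Cd9, at 198.4 ± 39.9 TPM in P278KY and 235 ± 48.6 TPM in wt cords (log2 fold change -0.21 ± 0.08; edgeR adjusted p = 0.9999, unadjusted p = 0.0173), which oligodendrocytes also express. Csf1, the growth factor read by Csf1r, was at 17.8 ± 2.89 TPM in P278KY and 16.9 ± 2.35 TPM in wt cords (0.10 ± 0.11; edgeR adjusted p = 0.9999).

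Of 25 ligands, receptors and partners of the 10 genes that were tested, 0 were called, 10 had a log2 fold change above 0 and 15 below, with a median of -0.03. Igf2r, the clearance receptor for Igf2, had the smallest p, at 12.5 ± 1.08 TPM in P278KY and 11.3 ± 1.22 TPM in wt cords (0.18 ± 0.08; edgeR adjusted p = 0.9999, unadjusted p = 0.038). Lgals3bp, a secreted glycoprotein that binds galectin-3, followed at 8.22 ± 1.35 TPM in P278KY and 9.49 ± 2.80 TPM in wt cords (-0.35 ± 0.17; edgeR adjusted p = 0.9999, unadjusted p = 0.0642). Gpihbp1, which anchors Lpl to capillary walls and is named after its values were seen, stood at 2.40 ± 1.93 TPM in P278KY and 1.19 ± 0.780 TPM in wt cords (0.99 ± 0.54; edgeR adjusted p = 0.9999, unadjusted p = 0.0901), and was highest in male P278KY 3, as was Lpl.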

How the data were processed

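Poly(A) RNA of whole spinal cord was sequenced paired-end after a stranded library protocol, per the labels' protocols. The submitters' processing notes name Bowtie2 2.2.0 and RSEM 1.2.12 without a role. Build, annotation and strand setting of the counting were not given in the labels or headers. The deposited values of each gene are, per the file headers, an expected count, TPM (scaled by the authors to length and library total) and FPKM, which was not used.

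Members and lists were chosen with earlier results of these data known. Expected counts were rounded, filtered with filterByExpr over the 4 groups, scaled with TMM factors and tested with edgeR 4.0.16 quasi-likelihood (robust) in R 4.3.3, with labelled sex as a term, or with 1 mean per group for effects within sex and the interaction. P-values were adjusted by Benjamini-Hochberg over 17995 genes with a threshold of 0.05. Standard errors are the log2 fold change over the root of its F statistic. The procedure was tested on simulated counts.

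TPM served for levels and list sums, and log2 CPM (prior count 2) for correlations, with 100000 permutations. Of 237 list symbols 235 were found. Genes named beside the 10 were the 2 with the smallest p of each pathway list, the leading gene of each cell type list and the 3 most like each member, with predicted genes passed over; 1 gene like Csf1r is not reported here. Csf1, Gpihbp1, Itgax, Cst7, Clec7a, Ccl3, Ccl4, the neighbours named only by list, and Gars were named beyond that rule, after their values were seen. Positions are from GENCODE M21 on GRCm38 and approximate, since the authors' build is unknown. Alternatives were RLE factors, library totals, no filter, a minimum of CPM 1 in 6 libraries, DESeq2 1.42.0, limma 3.58.1 by voom and by trend on log2(TPM + 1) and log2(TPM + 0.1), no sex term, Y-linked expression for sex, a skeletal muscle score, and libraries left out. Mouse numbers are not shared between groups, so there are no pairs.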

Additional observations from a re-analysis of the deposited data

Results flagged for a closer look

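Of 60 sets of 6 libraries examined, each 1 gene or list in 1 genotype, 12 held a library far from the other 5, where chance gives about 1 in 20. In P278KY cords these were male P278KY 3, with 33.81 TPM of Lpl and 218 TPM of summed adipocyte markers. In wt cords the library labelled male wt 19 held 1300 TPM of summed skeletal muscle markers. The library labelled female wt 14 accounted for the other 9. It had 15.39 TPM of Tmem119 and 99.47 TPM of Spp1, and summed markers of 116 TPM for osteoclasts, 737 TPM for osteoblasts and bone, 96.1 TPM for cartilage, 16.4 TPM for melanocytes, 1680 TPM for meninges and fibroblasts, 725 TPM for sensory ganglion neurons and 529 TPM for motor neurons. Some of these lists share genes, so the 9 are not independent.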

How the results depend on the processing

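Where an adjusted p was given, no member was called for genotype under any of the 24 alternatives, for sex, within a sex or for the interaction under those run there. The lowest adjusted p of any member for genotype was 0.379, for Igf1 without both sex-discordant libraries. The number of genes called was 1 in the main test, 0 with CPM above 1 in 6 libraries, 33 with DESeq2, 2 without a sex term, 2 with the skeletal muscle score, 0 without both sex-discordant libraries, and 1 to 3 with each library left out in turn, the 3 without female wt 2. The median log2 fold change of the activated genes, Gpnmb included, was 0.34, against 0.94 without both sex-discordant libraries and 0.22 to 0.85 with each library left out, highest without the library labelled female wt 14. The resting median of 0.08 lay between -0.02, with the skeletal muscle score, and 0.20, without both sex-discordant libraries. Signs turned with the skeletal muscle score, which itself went largely with genotype, for P2ry12 (-0.0158), Csf1r (-0.0365), C1qa (-0.0196), Lpl (-0.161) and Spp1 (-0.0555). With each library left out, P2ry12 ran from -0.0478 to 0.157 (below 0 without female P278KY 10 or female wt 2), Csf1r from -0.0454 to 0.129 (below 0 without female P278KY 10 or male wt 6) and Spp1 from -0.00028 to 0.85 (below 0 without male wt 6). The cause was not tested. The summed activated level in P278KY over wt was 1.29, and 1.84 without both sex-discordant libraries. Gpnmb could not be fitted with CPM above 1 in 6 libraries, since it falls under that filter, and its counts of 1 to 36 limit its precision. Of each member's 20 most like genes, 5 to 13 were kept with Spearman rho and 6 to 18 with log2(TPM + 1). No paired analysis was possible because no mouse number is shared between groups. The sums and correlations without the sex-discordant libraries, the correlations within genotypes and the activated sum without Spp1 were chosen after seeing the data.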
